A study of Homo sapiens with 9 samples.

Results

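Oxidative phosphorylation is the last stage of cellular respiration, and the genes described here encode its nuclear parts. They were taken as the probe sets that the platform annotation assigns to 1 symbol starting with NDUFA, NDUFB, NDUFC, NDUFS, NDUFV, UQCR, COX4 to COX8 or ATP5, with the probe set of highest mean log2 signal over the 9 arrays kept for each gene. This gave 70 members of the 11963 genes measured, from 99 probe sets. The choice used signal level and no difference between groups. Complex I (NADH dehydrogenase) had 33 members, of which 5 are core subunits of the arm that passes electrons, 23 are accessory subunits and 5 are assembly factors. Complex III (cytochrome bc1) had 6 members. Complex IV (cytochrome c oxidase) had 13, namely 12 subunits and COX7A2L. Complex V (ATP synthase) had 16, namely 15 subunits and ATP5IF1, its inhibitor. The other 2 are no subunits, the antisense RNA gene NDUFB2-AS1 and the pseudogene ATP5MC2P1, and their values are given apart. The symbols fit the label for 61 subunits.

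Complexes I, III and IV pass electrons from NADH to oxygen and pump protons across the inner mitochondrial membrane, and complex V lets them flow back to make ATP. All but complex II also hold subunits encoded in mitochondrial DNA, so each complex needs matched output from both genomes. Neurons depend heavily on this pathway, whereas many tumour cells draw part of their ATP from glycolysis. The subunits encoded in mitochondrial DNA were not analysed here.

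The study compared IMR32 cells, a human neuroblastoma line, that stably express the 69-kDa or the 82-kDa form of choline acetyltransferase (ChAT), the enzyme that makes acetylcholine, with wild-type IMR32 cells. Each group had 3 arrays, called biological replicates in the design text, which does not say whether they came from separate cultures, so p-values measure the spread between these arrays. No further treatment, time or dose is named, and the sources used here do not say whether each line is a single clone. Each form was carried by a line of its own, so a form cannot be told apart from its line, and the cells are called 69-kDa and 82-kDa cells below. Values are normalized intensities of gene chips and were tested on the log2 scale. The number of arrays limits their precision.

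The arrays labelled wild type differed from both lines in the markers of their cell type. MYCN, the oncogene amplified in IMR32, read 62.5 to 120.5 on them, against 4181 to 5947 on the 69-kDa arrays and 4301 to 6118 on the 82-kDa arrays. The summed signal of 13 neuroblastoma markers was 1726 to 1980.4 on the arrays labelled wild type, 11089.5 to 18523 on the 69-kDa arrays and 13749.6 to 20600 on the 82-kDa arrays, and 10 of the 13 were higher in either line. The sum of 10 epithelial markers was 6418 to 7244 on the arrays labelled wild type and 468 to 566 over both lines, and 7 of the 10 were lower in either line. Of 8 mesenchymal or Schwann markers 2 were lower in 69-kDa cells and 3 in 82-kDa cells, with sums of 12283 to 13498 on the arrays labelled wild type and 4858 to 8009 over both lines. Of 5 muscle markers 0 passed in either comparison (limma; 2 and 1 had an unadjusted p under 0.05), whereas with the replicate number as a block 2 of them and 2 of the mesenchymal or Schwann markers were higher in 69-kDa cells and 1 of each in 82-kDa cells. The defining neuroblastoma marker goes against the label, and both comparisons below share these 3 arrays. These markers move with every difference from those arrays given below, and their part in it was not tested. In cultures measured in bulk, fewer cells of a type and less RNA per cell cannot be told apart.

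Replicate 1 also stood apart from replicates 2 and 3 in every group. Over the members its log2 level lay below the mean of the others by a median of -0.36 in 69-kDa cells, -0.36 in 82-kDa cells and -0.14 on the arrays labelled wild type, while the median over all genes was 0.03 in each group. The 3' over 5' signal of ACTB, a check of RNA integrity, came to 0.703 for replicate 1 of 69-kDa cells, 0.709 for replicate 1 of 82-kDa cells and 0.831 to 1.08 on the other arrays. That of GAPDH was 0.950 to 1.06 on every array. Array medians ran from 133.7 to 142.7.

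Promoters are shown for 5 of the 10 members whose calls survived the removal of any single array in both lines. They are examples and do not compare lower with higher members. COX4I1, COX6B1, ATP5F1C and NDUFA8 were lower in both lines and COX7A2L was higher. Each sequence runs 5′ to 3′ on the gene's own strand from 250 bases before to 50 bases after the start of the RefSeq transcript (build GRCh38.p14). Their places are chr16:85799445-85799744 and chr19:35648073-35648372 on the plus strand, chr10:7787927-7788226 on the plus strand, chr9:122159730-122160029 on the minus strand and chr2:42361168-42361467 on the minus strand, the first of 2 starts listed for that gene. Capitals mark the letters of an ETS-type site (CCGGAAG, read here on the opposite strand) in COX4I1 and COX6B1, and those of the NRF1 motif in ATP5F1C and NDUFA8.
COX4I1: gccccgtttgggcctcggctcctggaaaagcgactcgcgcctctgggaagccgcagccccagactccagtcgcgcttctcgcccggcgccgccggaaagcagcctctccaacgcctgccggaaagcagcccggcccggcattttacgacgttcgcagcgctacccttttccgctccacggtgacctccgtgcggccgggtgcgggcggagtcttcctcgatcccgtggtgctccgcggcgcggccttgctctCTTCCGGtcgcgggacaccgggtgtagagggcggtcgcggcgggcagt
COX6B1: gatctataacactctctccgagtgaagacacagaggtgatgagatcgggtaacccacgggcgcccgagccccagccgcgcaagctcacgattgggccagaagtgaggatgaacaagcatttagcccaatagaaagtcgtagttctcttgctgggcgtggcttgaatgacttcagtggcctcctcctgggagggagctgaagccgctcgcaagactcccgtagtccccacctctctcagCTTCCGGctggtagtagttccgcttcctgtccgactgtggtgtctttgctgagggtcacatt
ATP5F1C: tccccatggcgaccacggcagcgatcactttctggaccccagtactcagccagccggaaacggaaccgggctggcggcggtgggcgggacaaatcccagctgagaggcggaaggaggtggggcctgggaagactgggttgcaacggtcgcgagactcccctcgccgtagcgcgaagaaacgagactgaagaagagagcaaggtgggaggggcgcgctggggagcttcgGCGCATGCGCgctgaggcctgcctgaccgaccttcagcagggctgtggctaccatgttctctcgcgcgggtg
NDUFA8: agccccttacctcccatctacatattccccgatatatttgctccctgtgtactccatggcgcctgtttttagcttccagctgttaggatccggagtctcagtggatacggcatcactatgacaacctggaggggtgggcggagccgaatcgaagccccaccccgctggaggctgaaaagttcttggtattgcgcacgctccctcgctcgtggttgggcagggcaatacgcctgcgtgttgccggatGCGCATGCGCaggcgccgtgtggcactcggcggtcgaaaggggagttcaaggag
COX7A2L: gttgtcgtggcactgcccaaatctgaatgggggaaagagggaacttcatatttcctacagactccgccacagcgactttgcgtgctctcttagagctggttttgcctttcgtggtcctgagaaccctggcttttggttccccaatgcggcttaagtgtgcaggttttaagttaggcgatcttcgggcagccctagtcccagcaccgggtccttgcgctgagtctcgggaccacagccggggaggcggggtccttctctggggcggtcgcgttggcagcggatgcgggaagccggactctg

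ETS factors such as GABP, NRF1 and YY1 are textbook regulators of nuclear genes for mitochondria. The RefSeq table held 62 of the 70 members, with 78 promoters. It did not list COX7A1, ATP5MC3, COX6C, UQCRB, NDUFB5, ATP5F1B, ATP5F1D or ATP5MC2P1. 4 short motifs were searched on both strands of all 35116 promoters of 300 bases. CCGGAAG stood in 24.4% of the member promoters and in 10.3% of all promoters, the YY1 letters AAGATGGC in 15.4% and 2.89%, the NRF1 letters in 5.13% and 1.24%, and the E box CACGTG in 10.3% and 7.26%. No motif contains another, but the end of CCGGAAG and the start of AAGATGGC share the letters AAG, so both can be read from overlapping bases. The first ETS match lay 12 bases before the start in COX6B1 and 2 bases after it in COX4I1, and the NRF1 letters began 22 bases before it in ATP5F1C and 4 bases before it in NDUFA8. None of the 4 motifs was found in the COX7A2L window shown, which says only that these letters are not in it. Of the lower members as stable but not shown, ATP5IF1, NDUFA10 and UQCR10 held none of the 4 motifs either. NDUFA1 held CCGGAAG and NDUFA3 the YY1 letters. Among the members of the table, CCGGAAG was in 5 of the 17 that were lower in 69-kDa cells and in 12 of the 42 that were not called. It was also in 1 of the 3 that were higher, ATP5PD. The YY1 letters were in 3 of the 17 and 8 of the 42, and the NRF1 letters in 2 of the 17 and 2 of the 42. Neither was in the 3 higher ones. A match is a description of the letters and shows no binding. The levels of factors with such motifs were also read. NRF1 gave log2 differences of -0.01 and 0.10 in 69-kDa and 82-kDa cells and YY1 -0.31 and -0.61, none of which passed (adjusted p from 0.15 to 0.95), and GABPA, the DNA-binding part of GABP, was lower by -0.87 and -0.87 (adjusted p = 0.0071 and 0.0068).

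Compared with the arrays labelled wild type, 18 members were lower and 3 higher in 69-kDa cells, and 16 were lower and 2 higher in 82-kDa cells (limma, adjusted p under 0.05 over 22215 probe sets). Over all genes 17.7% were called lower and 11.7% higher in 69-kDa cells, and 18.5% lower and 11.8% higher in 82-kDa cells. The median log2 difference was -0.17 over the members and 0.05 over all genes in 69-kDa cells, and -0.20 and 0.05 in 82-kDa cells. The members' median in replicates 2 and 3 alone was -0.059 in 69-kDa cells and -0.071 in 82-kDa cells, against 0.04 over all genes in each. Differences ran from -2.17 to 0.65 in 69-kDa cells and from -2.40 to 0.64 in 82-kDa cells. ATP5IF1, COX6B1, COX4I1 and NDUFA8 were at least 2-fold lower in 69-kDa cells, and the first 3 of them also in 82-kDa cells. In 69-kDa cells 49 members did not pass and in 82-kDa cells 52. Lower calls were thus 25.7% and 22.9% of the members and higher calls 4.29% and 2.86%, and these shares were not tested against those of all genes.

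With the replicate number as a block the counts became 28 lower and 5 higher in 69-kDa cells and 30 lower and 4 higher in 82-kDa cells, and no call was lost (0 in each direction). The block takes arrays of the same number as pairs, although the arrays themselves only set replicate 1 apart from 2 and 3. Over all genes the block gave 22.9% lower and 17.4% higher in 69-kDa cells and 23.6% and 18.3% in 82-kDa cells. In replicates 2 and 3 alone 28 members were lower and 6 higher in 69-kDa cells (all genes 23.9% and 19.6%), and 25 and 8 in 82-kDa cells (23.8% and 20.2%). All 3 arrays of 69-kDa cells read below all 3 labelled wild type for 26 members and above them for 6, where 24.3% and 22.9% of all genes did so. In 82-kDa cells this held for 24 and 4 members, against 24.6% and 21.1%. Without replicate 2 of 69-kDa cells 11 members were lower and 1 higher in them. Without their replicate 3 the higher count was also 1, and without replicate 1, 2 or 3 labelled wild type 11, 11 and 10 were lower. In 82-kDa cells the lower count fell to 9 without replicate 3 labelled wild type, and the higher count was 5 without replicate 1 of the line and 1 without its replicate 2.

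**Figure D1:**
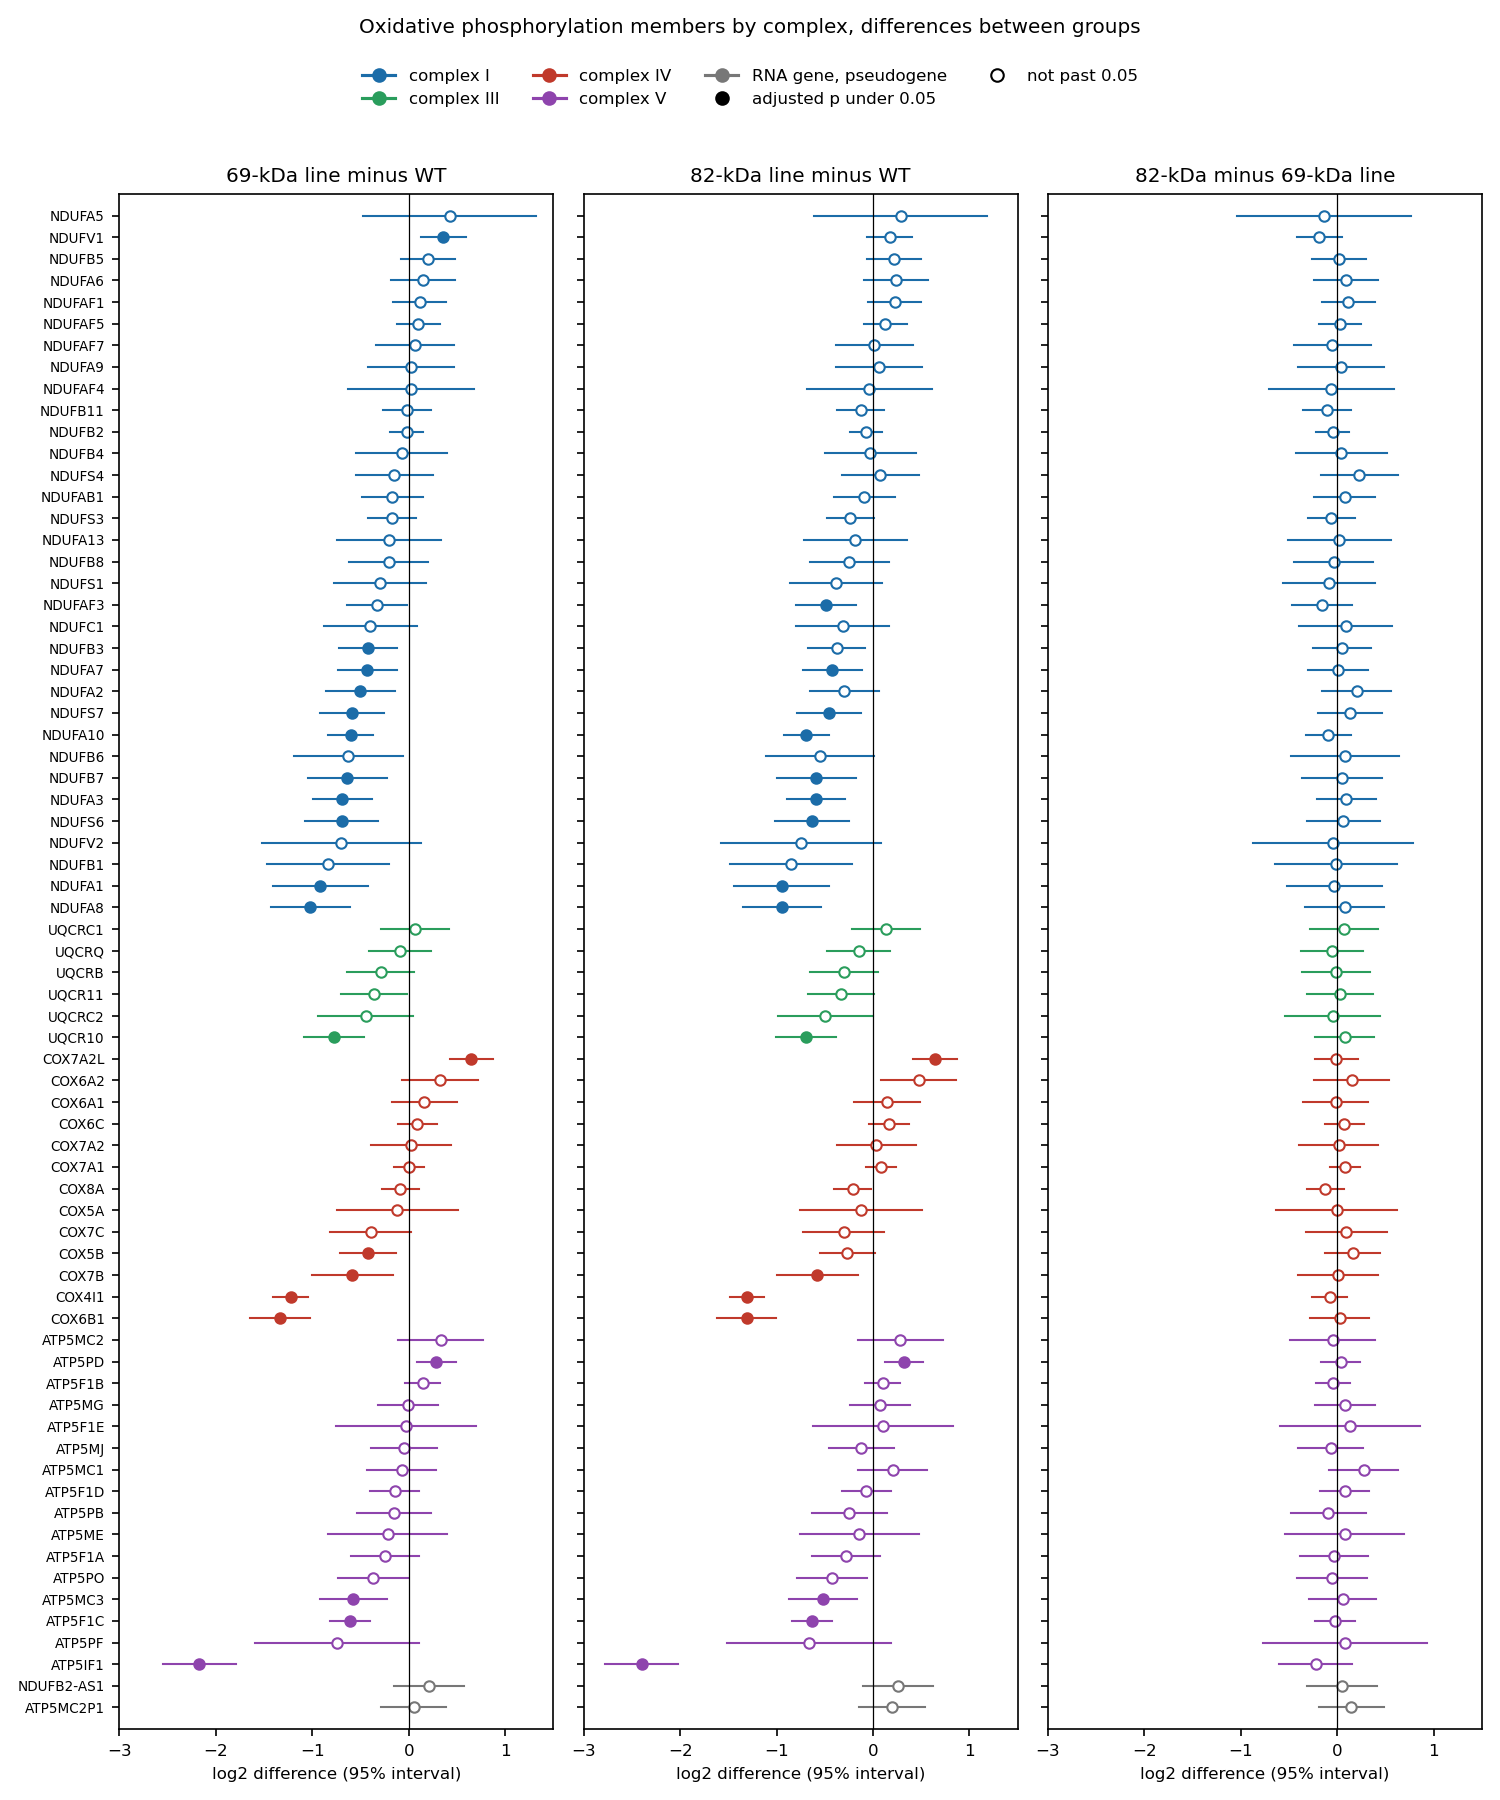
Log2 differences of the 70 members between groups, with 69-kDa cells minus the arrays labelled WT (left), 82-kDa cells minus the same arrays (middle) and 82-kDa minus 69-kDa cells (right). Points are differences of 3-array means, bars their 95% intervals, colours the complexes, and filled points passed an adjusted p of 0.05. ATP5IF1, at -2.17 and -2.40, lies farthest to the left, and no point of the right panel is filled.

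Complex I is the largest group of members, and 10 of its 33 were lower in 69-kDa cells and 9 in 82-kDa cells. That is 30.3% and 27.3%, against 17.7% and 18.5% of all genes. Of its members 1 and 0 were higher (3.03% and 0%, against 11.7% and 11.8%). Its median log2 difference was -0.21 and -0.25, and became -0.12 and -0.14 without replicate 1 of the line compared and -0.35 and -0.42 without its replicate 3. Among the 5 core subunits, NDUFS7, which carries the iron-sulphur cluster next to ubiquinone, was lower in both lines. NDUFV1, the flavin-binding subunit that takes electrons from NADH, was higher in 69-kDa cells. It read 2225, 1992 and 2020.3 on the 69-kDa arrays, 1938, 1689 and 1850.3 on the 82-kDa arrays and 1835, 1501 and 1538 on the arrays labelled wild type. The 69-kDa arrays all lay above those labelled wild type, while the 82-kDa arrays overlapped them. The log2 difference was 0.36 in 69-kDa cells (SE 0.1, adjusted p = 0.031) and 0.17 in 82-kDa cells (SE 0.1, adjusted p = 0.26), where it passed in replicates 2 and 3 alone (0.047). Its call in 69-kDa cells was lost without any 1 of 5 arrays, all 3 of the line and replicates 2 and 3 labelled wild type, with adjusted p up to 0.11. NDUFS7 read 795, 711 and 709.7 on the 69-kDa arrays, 667, 819 and 968 on the 82-kDa arrays and 1242, 974 and 1128 on the arrays labelled wild type. Replicate 3 of 82-kDa cells lay just below the lowest array labelled wild type, and the log2 difference was -0.59 in 69-kDa cells (SE 0.15, adjusted p = 0.016) and -0.46 in 82-kDa cells (SE 0.15, adjusted p = 0.049). That call was lost without any 1 of 4 arrays in 69-kDa cells (its replicates 2 and 3 and replicates 1 and 3 labelled wild type), with adjusted p up to 0.061. In 82-kDa cells it was lost without any 1 of 7 (up to 0.15), all but its own replicate 3 and replicate 2 labelled wild type, and also in replicates 2 and 3 alone (0.13). NDUFV2 and NDUFS1, iron-sulphur subunits of the NADH-oxidising arm, gave -0.70 and -0.75 and -0.29 and -0.38, and NDUFS3 gave -0.17 and -0.23, none of which passed. With the replicate block NDUFV2 passed in both lines (adjusted p = 0.0046 and 0.0034), as in replicates 2 and 3 alone (0.010 and 0.0086), and NDUFS1 in 82-kDa cells (0.032).

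Of the 23 accessory subunits of complex I, which surround the core, 9 were lower in 69-kDa cells and 7 in 82-kDa cells. In either line 0 were higher. Of all genes 17.7% and 18.5% were lower and 11.7% and 11.8% higher. NDUFA8, a subunit facing the intermembrane space, read 617, 785 and 922 on the 69-kDa arrays, 651, 806 and 996 on the 82-kDa arrays and 1505, 1579 and 1563 on the arrays labelled wild type. Both lines lay below the arrays labelled wild type on every array, and the log2 difference was -1.02 in 69-kDa cells (SE 0.18, adjusted p = 0.0029) and -0.94 in 82-kDa cells (SE 0.18, adjusted p = 0.0044). NDUFA1, a subunit of the membrane arm, read 1312, 1955 and 2004 on the 69-kDa arrays, 1291, 1792 and 2084 on the 82-kDa arrays and 2808, 3513 and 3505 on the arrays labelled wild type. Its groups did not overlap either, although replicate 1 read lowest within each group. The difference was -0.92 in 69-kDa cells (SE 0.22, adjusted p = 0.013) and -0.95 in 82-kDa cells (SE 0.22, adjusted p = 0.011). NDUFA10, another membrane arm subunit, read 826, 849.7 and 896 on the 69-kDa arrays, 716, 809 and 896 on the 82-kDa arrays and 1358, 1187 and 1361 on the arrays labelled wild type. The replicates lay close together within each line, and the difference was -0.60 in 69-kDa cells (SE 0.1, adjusted p = 0.0024) and -0.69 in 82-kDa cells (SE 0.1, adjusted p = 0.0011). NDUFA3 read 715, 932 and 857 on the 69-kDa arrays, 767, 903 and 1001 on the 82-kDa arrays and 1232, 1336 and 1448 on the arrays labelled wild type, again without overlap. Its difference was -0.69 in 69-kDa cells (SE 0.13, adjusted p = 0.0048) and -0.59 in 82-kDa cells (SE 0.13, adjusted p = 0.01).

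NDUFS6, a zinc-binding subunit of the NADH-oxidising arm, read 1042, 1313 and 1498 on the 69-kDa arrays, 1063, 1426 and 1542 on the 82-kDa arrays and 2173, 1998 and 2012 on the arrays labelled wild type. No array of either line reached the arrays labelled wild type, and the log2 difference was -0.70 in 69-kDa cells (SE 0.17, adjusted p = 0.014) and -0.63 in 82-kDa cells (SE 0.17, adjusted p = 0.022). The call was lost in 69-kDa cells without replicate 1 labelled wild type (adjusted p = 0.050) and in 82-kDa cells without any 1 of the 3 arrays so labelled (up to 0.070). NDUFB7, a membrane arm subunit, read 192, 221 and 252 on the 69-kDa arrays, 176, 235 and 288 on the 82-kDa arrays and 327, 326 and 379.8 on the arrays labelled wild type. Its difference was -0.64 in 69-kDa cells (SE 0.18, adjusted p = 0.03) and -0.59 in 82-kDa cells (SE 0.18, adjusted p = 0.04). It was lost without any 1 of 5 arrays in 69-kDa cells (replicates 1 and 2 of the line and all 3 labelled wild type; adjusted p up to 0.10) and of 6 in 82-kDa cells (its replicates 1 and 2, the same 3 and replicate 2 of 69-kDa cells; up to 0.13). NDUFA7 differed by -0.43 in 69-kDa cells (SE 0.14, adjusted p = 0.046) and -0.42 in 82-kDa cells (SE 0.14, adjusted p = 0.049). That call was lost without any 1 of 6 arrays in 69-kDa cells (its own 3, replicate 2 of 82-kDa cells and replicates 2 and 3 labelled wild type; up to 0.14) and of 7 in 82-kDa cells (the same 6 and its replicate 1; up to 0.15). NDUFA2 and NDUFB3 passed only in 69-kDa cells, with differences of -0.50 (adjusted p = 0.047) and -0.43 (0.043), against -0.30 (0.21) and -0.38 (0.066) in 82-kDa cells. The call of each was lost without any 1 of 6 arrays (adjusted p up to 0.13 for both). For NDUFA2 these were replicates 1 and 2 of the line, replicate 2 of 82-kDa cells and the 3 labelled wild type, and for NDUFB3 replicate 1 of the line, replicates 2 and 3 of 82-kDa cells and the same 3. With the replicate block both passed in 82-kDa cells too (0.043 and 0.018).

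Several accessory subunits had differences as large that did not pass over all arrays without the block. NDUFB1, of the membrane arm, read 1150.0, 1982 and 1974 on the 69-kDa arrays, 1126, 1977 and 1977 on the 82-kDa arrays and 2553, 3442 and 2917 on the arrays labelled wild type. Its replicate 1 was far below the other replicates in both lines, and the log2 difference was -0.84 in 69-kDa cells (SE 0.28, adjusted p = 0.057) and -0.85 in 82-kDa cells (SE 0.28, adjusted p = 0.053). With the block the adjusted p was 0.0019 and 0.0018, and in replicates 2 and 3 alone it was 0.0011 and 0.0012. NDUFB6 (-0.63 and -0.55) and NDUFC1 (-0.40 and -0.31) likewise passed with the block (adjusted p from 0.0023 to 0.023) and in replicates 2 and 3 alone (from 0.0032 to 0.044). NDUFA5, of the ubiquinone-binding part, went the other way, with 0.42 in 69-kDa cells, which passed with the block (0.028), and 0.29 in 82-kDa cells, which did not (0.093). It passed as higher in both in replicates 2 and 3 alone (0.026 and 0.019). The other 10 accessory subunits did not pass over all arrays with or without the block, although NDUFB5 did as higher in replicates 2 and 3 of 82-kDa cells (0.046), with differences from -0.21 (NDUFB8) to 0.20 (NDUFB5) in 69-kDa cells. Among these NDUFAB1, the mitochondrial acyl carrier protein and the subunit of highest mean signal in complex I, gave -0.17 and -0.09.

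The 5 assembly factors of complex I, which help build it and are not part of the finished enzyme, showed 1 call. NDUFAF3 was lower in 82-kDa cells (log2 difference -0.49, SE 0.14, adjusted p = 0.028), with -0.33 in 69-kDa cells (adjusted p = 0.12). It read 534, 400.2 and 422 on the 69-kDa arrays, 375, 372 and 465 on the 82-kDa arrays and 563, 520.3 and 608 on the arrays labelled wild type. The 82-kDa arrays all lay below those labelled wild type, and replicate 1 of 69-kDa cells overlapped them. That call was lost without any 1 of 4 arrays, replicates 1 and 2 of the line and replicates 1 and 3 labelled wild type (adjusted p up to 0.10). It was also lower in replicates 2 and 3 of 69-kDa cells (0.029). NDUFAF1 and NDUFAF4 gave 0.11 and 0.23, and 0.02 and -0.04, and NDUFAF1 passed as higher in replicates 2 and 3 of both lines (0.031 and 0.029). The methyltransferases NDUFAF5 and NDUFAF7 stayed on every array below 55.9, the smallest of the array lower quartiles, so they were near background and their differences are not given.

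Complex III passes electrons from ubiquinol to cytochrome c, and 1 of its 6 members was called, as lower, in each line. That is 16.7%, against 17.7% and 18.5% of all genes. The called member was UQCR10. This small membrane subunit read 2430.2, 3225 and 3372 on the 69-kDa arrays, 2867, 3132 and 3448 on the 82-kDa arrays and 5468, 4761 and 5067 on the arrays labelled wild type. The groups did not overlap, and the log2 difference was -0.77 in 69-kDa cells (SE 0.14, adjusted p = 0.0028) and -0.70 in 82-kDa cells (SE 0.14, adjusted p = 0.005). The median of the 6 was -0.33 in 69-kDa cells and -0.32 in 82-kDa cells, and -0.20 and -0.19 without replicate 1 of the line compared. Probe sets with the suffixes _x_at and _s_at can match several transcripts. Where they were left out the median was -0.01 in both, but not over the same 6 genes. UQCR10 and UQCR11 then drop out, and UQCRB and UQCRC2 are read from dimmer probe sets. The core protein UQCRC2 (-0.44 and -0.49), the smallest subunit UQCR11 (-0.36 and -0.33) and the ubiquinone-binding UQCRB (-0.29 and -0.30) passed as lower in both lines with the replicate block (adjusted p from 0.014 to 0.036). In replicates 2 and 3 alone UQCRC2 passed in both (0.0087 and 0.024), UQCR11 in 69-kDa cells (0.042) and UQCRB in 82-kDa cells (0.045). UQCRQ and UQCRC1 were called with neither, nor in replicates 2 and 3, with -0.09 and -0.15, and 0.06 and 0.13. A probe set shared by the hinge protein UQCRH and its copy UQCRHL stood outside the rule and is given at the end.

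In complex IV, where oxygen is reduced, large differences stood beside small ones. COX4I1, the common isoform of the largest nuclear subunit, read 1723, 1631 and 1724 on the 69-kDa arrays, 1518, 1573 and 1717 on the 82-kDa arrays and 4195, 3819.6 and 3868 on the arrays labelled wild type. The arrays labelled wild type were above both lines with no overlap, and the level was 2.34-fold lower in 69-kDa cells (log2 difference -1.23, SE 0.079, adjusted p = 9.4e-06) and 2.47-fold lower in 82-kDa cells (log2 difference -1.31, SE 0.079, adjusted p = 6.4e-06). Another probe set of the gene, with the suffix _s_at, read 718, 950.3 and 997 on the 69-kDa arrays, 709.5, 972 and 1064 on the 82-kDa arrays and 1892, 2377 and 2381 on the arrays labelled wild type, and was called lower as well (-1.33 and -1.29). The third, with the suffix _at, read 135.9 to 211.6 over all arrays and was not called (0.10 and -0.04). COX6B1, a subunit on the intermembrane side, read 1325, 1612 and 1794 on the 69-kDa arrays, 1470.4, 1485 and 1849 on the 82-kDa arrays and 3669, 4144 and 4033 on the arrays labelled wild type. Its gap was of similar size, 2.52-fold lower in 69-kDa cells (log2 difference -1.33, SE 0.13, adjusted p = 0.00013) and 2.48-fold lower in 82-kDa cells (log2 difference -1.31, SE 0.13, adjusted p = 0.00015). The promoters of these genes are those shown with ETS letters.

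COX7A2L, a relative of subunit 7A that joins complexes III and IV into a supercomplex, was higher in both lines. It read 2807, 2778 and 2902 on the 69-kDa arrays, 2496, 2798 and 3181 on the 82-kDa arrays and 1735, 1757 and 1923 on the arrays labelled wild type. Every array of both lines lay above those labelled wild type, with a log2 difference of 0.65 in 69-kDa cells (SE 0.099, adjusted p = 0.0013) and 0.64 in 82-kDa cells (SE 0.099, adjusted p = 0.0014). COX7B, a membrane subunit, was lower and read 1972, 2528 and 2681 on the 69-kDa arrays, 1876, 2547 and 2837 on the 82-kDa arrays and 3082, 4049 and 3601 on the arrays labelled wild type. Its groups did not overlap, and the difference was -0.58 in 69-kDa cells (SE 0.18, adjusted p = 0.045) and -0.58 in 82-kDa cells (SE 0.18, adjusted p = 0.047). Leaving out any 1 of 6 arrays ended that call in 69-kDa cells (its own 3, replicate 2 of 82-kDa cells and replicates 2 and 3 labelled wild type; adjusted p up to 0.15) and any 1 of 6 in 82-kDa cells (its replicates 1 and 2 and replicates 2 and 3 of both other groups; up to 0.15). COX5B, the zinc-binding subunit, read 2909, 2766 and 2773 on the 69-kDa arrays, 3847, 2629.8 and 3066 on the 82-kDa arrays and 3827, 3693 and 3818 on the arrays labelled wild type. In 82-kDa cells replicate 1 lay above the arrays labelled wild type and the others below. The difference was -0.42 in 69-kDa cells (SE 0.13, adjusted p = 0.037) and -0.27 in 82-kDa cells (SE 0.13, adjusted p = 0.17), and the call in 69-kDa cells was lost without any 1 of 7 arrays, all but replicates 1 and 2 of 82-kDa cells (adjusted p up to 0.11). COX5B was also lower in replicates 2 and 3 of 82-kDa cells (0.010). A dimmer COX5B probe set, with the suffix _x_at, was called lower in both lines, by -0.46 (adjusted p = 0.030) and -0.41 (0.048). A dimmer COX7C probe set, with the suffix _at, gave -0.58 and -0.57. It passed as lower in the fit without the suffixes _x_at and _s_at (adjusted p = 0.00075 and 0.00086). The brightest COX7C probe set (-0.39 and -0.30) passed as lower in both lines with the replicate block (0.015 and 0.041) and in replicates 2 and 3 of 69-kDa cells (0.022). COX8A (-0.09 and -0.21) passed with the block in 82-kDa cells (0.049).

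Subunits 6A and 7A have a widely expressed isoform and one of heart and muscle. COX6A1 and COX7A2, the widely expressed isoforms, gave 0.16 and 0.15, and 0.02 and 0.04, and were not called (adjusted p from 0.48 to 0.94). COX6A2, the muscle isoform, read 222, 170.4 and 159 on the 69-kDa arrays, 248, 205 and 161 on the 82-kDa arrays and 151, 144 and 141 on the arrays labelled wild type. Both lines lay above the arrays labelled wild type without overlap, and the difference was 0.33 in 69-kDa cells (SE 0.17, adjusted p = 0.22) and 0.47 in 82-kDa cells (SE 0.17, adjusted p = 0.076). It passed with the replicate block (0.05 and 0.012) and not in replicates 2 and 3 alone (0.21 and 0.053). The 5 muscle markers summed to 327 to 377 on arrays labelled wild type, 375.7 to 432 in 69-kDa cells and 354.8 to 436 in 82-kDa cells. CKM, muscle creatine kinase, passed with the same block in both lines, with log2 differences of 0.51 and 0.41. With that block 2 of the 5 markers passed in 69-kDa cells and 1 in 82-kDa cells. Their part in the result was not tested. COX7A1, the other muscle isoform, read 46.3 to 51.9 on all arrays, near background. COX5A and COX6C gave -0.12 and -0.13, and 0.09 and 0.16, and passed in neither fit. Over the 13 members of complex IV 4 were lower in 69-kDa cells and 3 in 82-kDa cells (30.8% and 23.1%, against 17.7% and 18.5% of all genes). In each line 1 was higher (7.69%, against 11.7% and 11.8%). The median log2 difference of the 13, -0.09 and -0.13, has no firm direction. It was 0.02 without replicate 1 of 69-kDa cells and 0.10 without replicate 1 of 82-kDa cells. Without probe sets of the suffixes _x_at and _s_at it was 0.02 and 0.08. COX5A and COX8A then drop out, and COX4I1, COX5B and COX7C are read from dimmer probe sets.

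**Figure D2:**
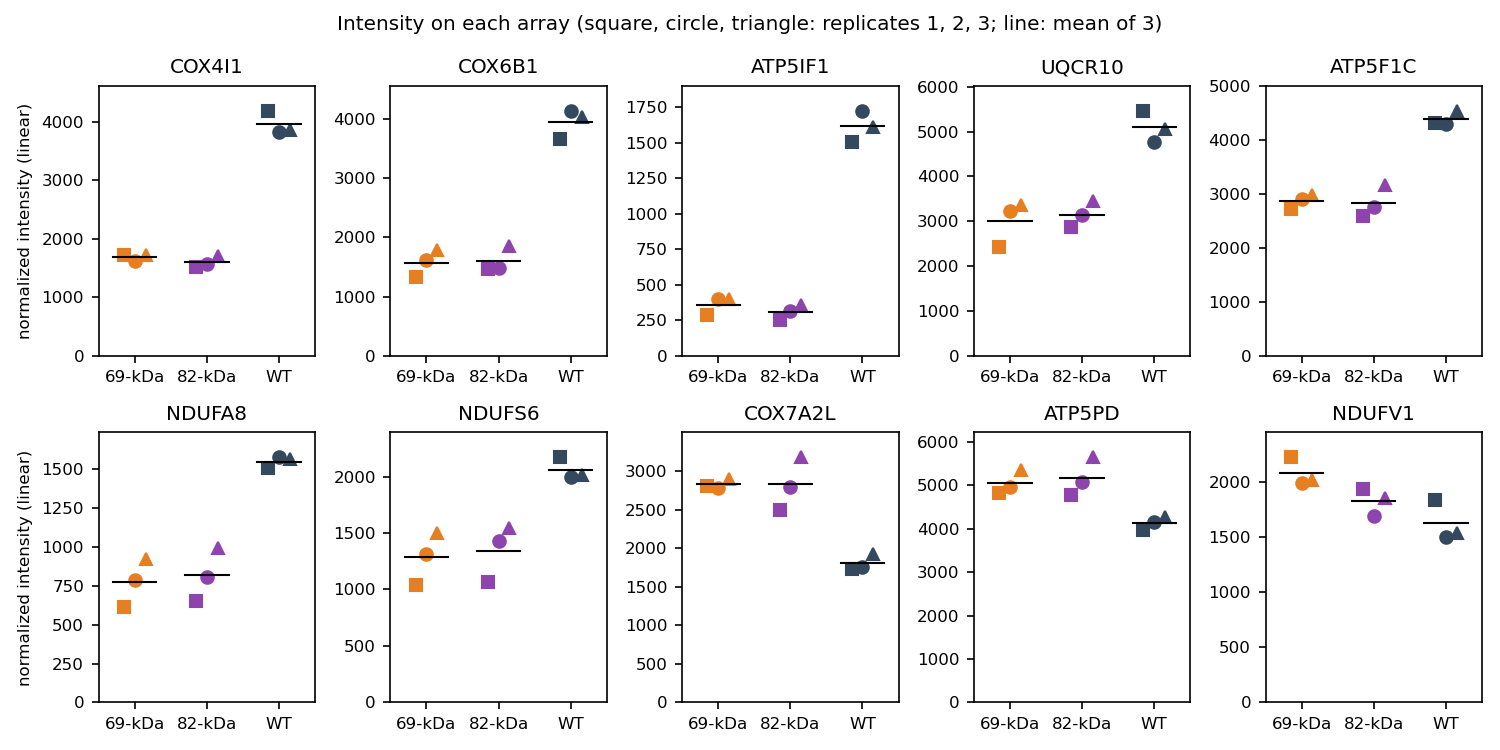
Normalized intensity on a linear axis for 10 members in 69-kDa cells, 82-kDa cells and the arrays labelled WT. Squares, circles and triangles are replicates 1, 2 and 3, and the line is their mean. COX4I1, COX6B1 and ATP5IF1 sit far higher on the arrays labelled WT than in both lines, and COX7A2L and ATP5PD sit lower.

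The largest difference of all members was in complex V, and it was in no subunit. ATP5IF1, the small protein that stops ATP synthase from running backwards and consuming ATP, read 287, 399 and 399 on the 69-kDa arrays, 251, 318 and 359 on the 82-kDa arrays and 1506, 1728 and 1614 on the arrays labelled wild type. All arrays of both lines were far below those labelled wild type. The level was 4.51-fold lower in 69-kDa cells (log2 difference -2.17, SE 0.17, adjusted p = 2.5e-05) and 5.27-fold lower in 82-kDa cells (log2 difference -2.40, SE 0.17, adjusted p = 1.4e-05). ATP5F1C, the gamma subunit that forms the rotating shaft, read 2722, 2919 and 2976 on the 69-kDa arrays, 2598, 2755 and 3171 on the 82-kDa arrays and 4318, 4294 and 4551 on the arrays labelled wild type. It was lower without overlap, by -0.61 in 69-kDa cells (SE 0.091, adjusted p = 0.0011) and -0.63 in 82-kDa cells (SE 0.091, adjusted p = 0.00096), and 3 of its 4 probe sets were called lower in either line. Those 3 carry the suffix _x_at. The remaining one, with the suffix _at, read 108 to 118 over all arrays and gave -0.04 and -0.06 without a call. The call of the gene was thus lost where the suffixes _x_at and _s_at were left out (adjusted p = 0.71 and 0.52). Subunits alpha and beta of the catalytic head, ATP5F1A and ATP5F1B, gave -0.25 and -0.28, and 0.14 and 0.10, with no call (adjusted p from 0.23 to 0.39). The delta and epsilon subunits ATP5F1D and ATP5F1E gave -0.14 and -0.07, and -0.03 and 0.10, also without a call. The gamma subunit was the 1 called member of the 5 in the head and central stalk.

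The ring of subunit c, which turns as protons pass, is encoded by ATP5MC1, ATP5MC2 and ATP5MC3, whose mature proteins are identical. ATP5MC3 read 2454, 2765 and 2862 on the 69-kDa arrays, 2135, 3181 and 3206 on the 82-kDa arrays and 4040.5, 3899 and 4077 on the arrays labelled wild type. It was lower, by -0.58 in 69-kDa cells (SE 0.15, adjusted p = 0.023) and -0.52 in 82-kDa cells (SE 0.15, adjusted p = 0.035). Its call was lost without any 1 of 5 arrays in either line, with adjusted p up to 0.071 and 0.097. In 69-kDa cells these were its replicates 1 and 2, in 82-kDa cells replicates 2 and 3 of 69-kDa cells, and in both the 3 labelled wild type. ATP5MC2 differed by 0.33 and 0.28 (adjusted p = 0.27 and 0.33) and ATP5MC1 by -0.07 and 0.20 (0.77 and 0.39), so neither was called, but in replicates 2 and 3 alone ATP5MC2 was higher in both lines (0.037 and 0.016). Differences between the 3 genes were not tested. In the peripheral stalk, which holds the head still, ATP5PD was higher and read 4819, 4956 and 5362 on the 69-kDa arrays, 4779, 5081 and 5649 on the 82-kDa arrays and 3972, 4146 and 4274 on the arrays labelled wild type. Every array of both lines lay above those labelled wild type, with a difference of 0.29 in 69-kDa cells (SE 0.087, adjusted p = 0.039) and 0.32 in 82-kDa cells (SE 0.087, adjusted p = 0.024). That call was lost without any 1 of 6 arrays in 69-kDa cells (its replicates 2 and 3, replicate 2 of 82-kDa cells and the 3 labelled wild type; adjusted p up to 0.14) and of 4 in 82-kDa cells (its replicates 2 and 3 and replicates 1 and 2 labelled wild type; up to 0.077), and with median centring in both lines.

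The stalk subunits ATP5PF (-0.74 and -0.66) and ATP5PO (-0.37 and -0.42) passed as lower in both lines with the replicate block (adjusted p from 0.0013 to 0.0033) and in replicates 2 and 3 alone (from 0.0016 to 0.0075). ATP5PF read 1256, 2186 and 2314 on the 69-kDa arrays, 1192, 2326 and 2714 on the 82-kDa arrays and 2126, 4013 and 3496 on the arrays labelled wild type. Its replicate 1 was the lowest in every group and reached about the level of the lines' other replicates on the array labelled wild type. ATP5PB gave -0.15 and -0.25 and was not called. The small membrane subunits ATP5ME, ATP5MG and ATP5MJ gave -0.22 and -0.14, -0.01 and 0.07, and -0.05 and -0.12, none of which passed in either fit. Over the 16 members of complex V 3 were lower in each line (18.8%, against 17.7% and 18.5% of all genes) and 1 was higher (6.25%, against 11.7% and 11.8%). The median log2 differences of the 16 were -0.15 and -0.13. Without replicate 1 of 69-kDa cells the first was 0.02, and without replicate 1 of 82-kDa cells the other was 0.03. The antisense RNA gene NDUFB2-AS1 read 39.6 to 67.1 over all arrays and gave 0.21 and 0.26, which passed with the block in 82-kDa cells alone (0.031). The pseudogene ATP5MC2P1 gave 0.05 and 0.20 without a call, although it was higher in replicates 2 and 3 of 82-kDa cells (0.0057), and its signal cannot be told apart from that of ATP5MC2 transcripts if probes match both.

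The lines carrying the 69-kDa and the 82-kDa form were then compared directly. None of the 70 members passed in either direction (limma; 0 higher, 0 lower), and 0 had an unadjusted p under 0.05, a level that 3.69% of all genes reached. Over all genes 0 were called as well. Differences ran from -0.23 (ATP5IF1) to 0.27 (ATP5MC1), with a median of 0.02, and the 95% intervals had a median half-width of 0.35 and reached from -1.04 to 0.93. With the replicate block 4 members had an unadjusted p under 0.05 (7.20% of all genes) and 0 passed. In replicates 2 and 3 alone 6 had an unadjusted p under 0.05 (15.1% of all genes) and again 0 passed, whereas 1.13% of all genes were called higher and 1.32% lower. The arrays of the lines did not overlap for 2 members. COX7A1 was above in 82-kDa cells by 0.08 (95% interval -0.07 to 0.24), near background, and NDUFV1 was below by -0.19 (-0.42 to 0.04), where 2.93% and 3.94% of all genes parted in these directions. For ATP5IF1 the interval was -0.61 to 0.15, for COX4I1 -0.26 to 0.10, and for COX6B1 -0.28 to 0.33. Members called in one line and not in the other, such as NDUFV1, COX5B, NDUFA2, NDUFB3 and NDUFAF3, were thus not shown to differ between the lines.

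Replicate 1 read below both other replicates in all 3 groups for 42 of the 70 members, where 18.0% of all genes did so, and above them for 5, against 23.9%. The 42 included 17 of 33 members of complex I, 3 of 6 of complex III, 8 of 13 of complex IV and 13 of 16 of complex V. ATP5PF was lower on replicate 1 by a log2 difference of -0.84 in 69-kDa cells, -1.08 in 82-kDa cells and -0.82 on the arrays labelled wild type. NDUFA5 gave -0.67 in 69-kDa cells, -1.16 in 82-kDa cells and -1.06 on the arrays labelled wild type. For ATP5F1E, the epsilon subunit, it was -0.91 in 69-kDa cells, -0.92 in 82-kDa cells and -0.36 on the arrays labelled wild type. COX4I1 gave 0.04 in 69-kDa cells, -0.11 in 82-kDa cells and 0.13 on the arrays labelled wild type and kept its call in replicates 2 and 3 alone. The ACTB ratio was lowest on replicate 1 within both lines. Among the arrays labelled wild type it was not, at 0.847 on replicate 1 and 0.831 on replicate 3. Its part in the result was not tested. All members called in either comparison had the same direction in each of the 3 replicate numbers.

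**Figure D3:**
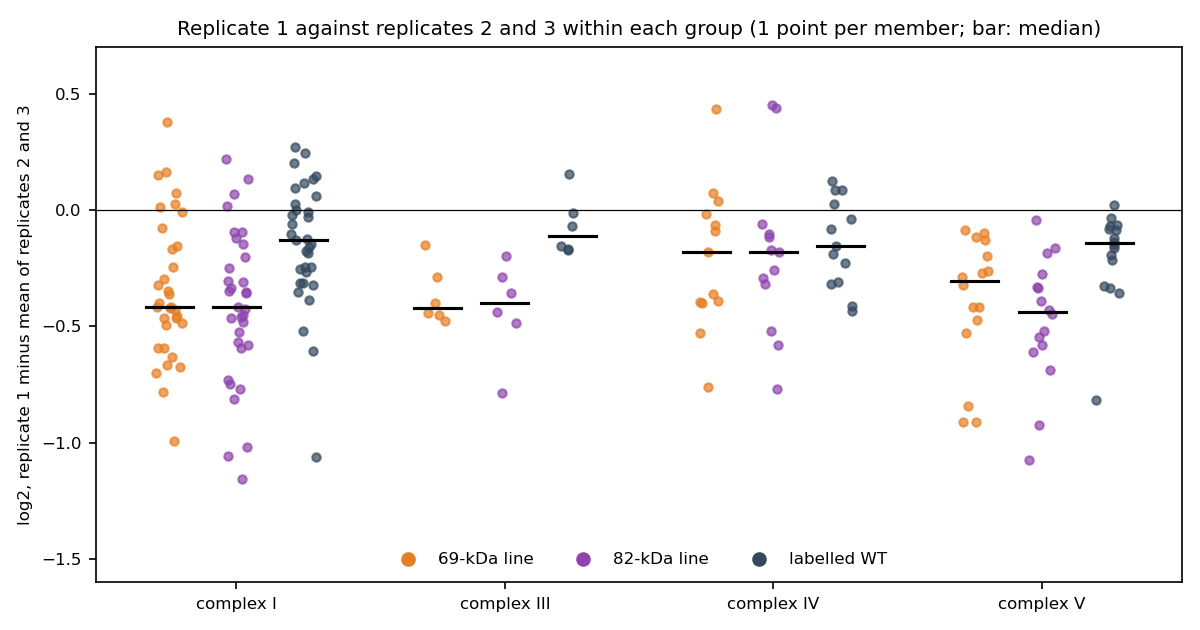
Log2 signal on replicate 1 minus the mean of replicates 2 and 3 within each group, 1 point per member, by complex (horizontal) and group (colour), with bars at the medians. Medians lie below 0 in every complex and group, for instance -0.44 for complex V in 82-kDa cells and -0.14 on the arrays labelled WT.

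Other genes around the pathway were read from lists. Over all genes 17.7% were called lower and 11.7% higher in 69-kDa cells, and 18.5% and 11.8% in 82-kDa cells. The counts of the lists were not tested against these shares. Of 3 measured subunits of complex II, which feeds electrons from succinate and has no mitochondrially encoded part, 1 was lower in 69-kDa cells and 2 in 82-kDa cells. SDHA, its flavin-binding subunit, read 475, 545 and 606 on the 69-kDa arrays, 569, 584 and 610.2 on the 82-kDa arrays and 1656, 1222 and 1331 on the arrays labelled wild type, 2.58-fold and 2.37-fold lower (adjusted p = 9.2e-05 and 0.00016), and SDHD gave -0.64 and -0.74 (0.07 and 0.041). With the replicate block all 3 were lower in 69-kDa cells, SDHD at 0.0028 and SDHC at 0.042, and 2 in 82-kDa cells. CYC1, the cytochrome c1 of complex III that the symbol rule does not match, was lower by -0.48 and -0.63 (0.02 and 0.0058), while cytochrome c itself, CYCS, gave 0.04 and -0.01 without a call. Of 23 assembly factors outside the rule 3 were higher and 4 lower in 69-kDa cells and 3 and 5 in 82-kDa cells. SCO2, a copper carrier for complex IV, was lower by -1.33 and -1.36 and BCS1L, which inserts the Rieske protein into complex III, by -0.82 and -0.66. COA7 was higher by 1.32 and 1.37 and LRPPRC, which keeps mitochondrial messenger RNA stable, by 0.87 and 0.80.

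Of 51 mitochondrial ribosomal proteins, which translate the mitochondrially encoded subunits, 14 were lower and 3 higher in 69-kDa cells and 15 and 5 in 82-kDa cells, with median log2 differences of -0.28 in both. With the replicate block 23 were lower in 69-kDa cells and 25 in 82-kDa cells, where 22.9% and 23.6% of all genes were. MRPS12 was lower by -1.97 and -1.62, MRPL40 by -1.49 and -1.37, MRPL24 by -0.74 and -0.70 and MRPL4 by -0.84 and -0.76. Of 16 genes of pyruvate dehydrogenase and the citric acid cycle 2 were higher and 3 lower in 69-kDa cells and 2 and 5 in 82-kDa cells. IDH2 and IDH3A, genes of the mitochondrial isocitrate dehydrogenases, were called in opposite directions. IDH2, the NADP form, was 4.46-fold and 3.99-fold higher, and IDH3A, the catalytic subunit of the NAD form, was 3.33-fold and 4.36-fold lower (largest adjusted p 0.00017). PDHA1, a subunit of pyruvate dehydrogenase, was lower by -0.59 and -0.63 and OGDH, of the oxoglutarate dehydrogenase complex, higher by 0.38 and 0.35. Of 8 pyruvate dehydrogenase kinases, phosphatases and pyruvate carriers 1 was higher and 1 lower in 69-kDa cells and 1 and 2 in 82-kDa cells. MPC2, a subunit of the pyruvate carrier, was lower by -1.27 and -1.21, PDP1, a phosphatase that activates pyruvate dehydrogenase, was higher by 0.76 and 0.61, and PDK4, a kinase that inactivates it, gave -0.27 and -0.34, which passed in 82-kDa cells.

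Of 8 carriers of nucleotides, phosphate and protons and porins 2 were higher and 2 lower in each line. UCP2, an uncoupling protein relative, read 1216, 876 and 865 on the 69-kDa arrays, 700.3, 632 and 626 on the 82-kDa arrays and 303, 302 and 290.1 on the arrays labelled wild type, a log2 difference of 1.71 and 1.13. SLC25A3, which brings in phosphate for ATP synthesis, was higher by 0.36 and 0.38, and the ADP and ATP carriers SLC25A5 and SLC25A4 were lower by -0.94 and -0.93, and by -0.49 and -0.48. Of 19 regulators of nuclear genes for mitochondria 7 were higher and 4 lower in 69-kDa cells and 6 and 4 in 82-kDa cells. MYCN was higher by 5.83 and 5.89 and MYC lower by -2.46 and -2.49. ESRRG, an orphan receptor that drives genes of oxidative metabolism, was higher by 3.69 and 3.47, and POLG2, a subunit of the mitochondrial DNA polymerase, by 0.95 and 0.74. With the replicate block some counts of the other lists also moved by over 1.5 times. Lower calls in 69-kDa cells became 7 among the assembly factors, 5 around the citric acid cycle and 3 among the kinases, phosphatases and pyruvate carriers. In 82-kDa cells 8 of the assembly factors, 8 genes around the citric acid cycle and 4 of the carriers and porins were lower, and 10 regulators and 2 of the kinases, phosphatases and pyruvate carriers were higher. Between the lines 0 of the 131 genes of these lists were called in either direction (limma; 3 had an unadjusted p under 0.05). The median log2 difference over all genes was 0.05 in each line. Lower calls were 17.7% and 18.5% of all genes and higher calls 11.7% and 11.8%. With the block these shares were 22.9% and 23.6% lower and 17.4% and 18.3% higher. These lists and the members share cells, arrays and the 3 arrays labelled wild type, so no list is read as support for another.

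**Figure D4:**
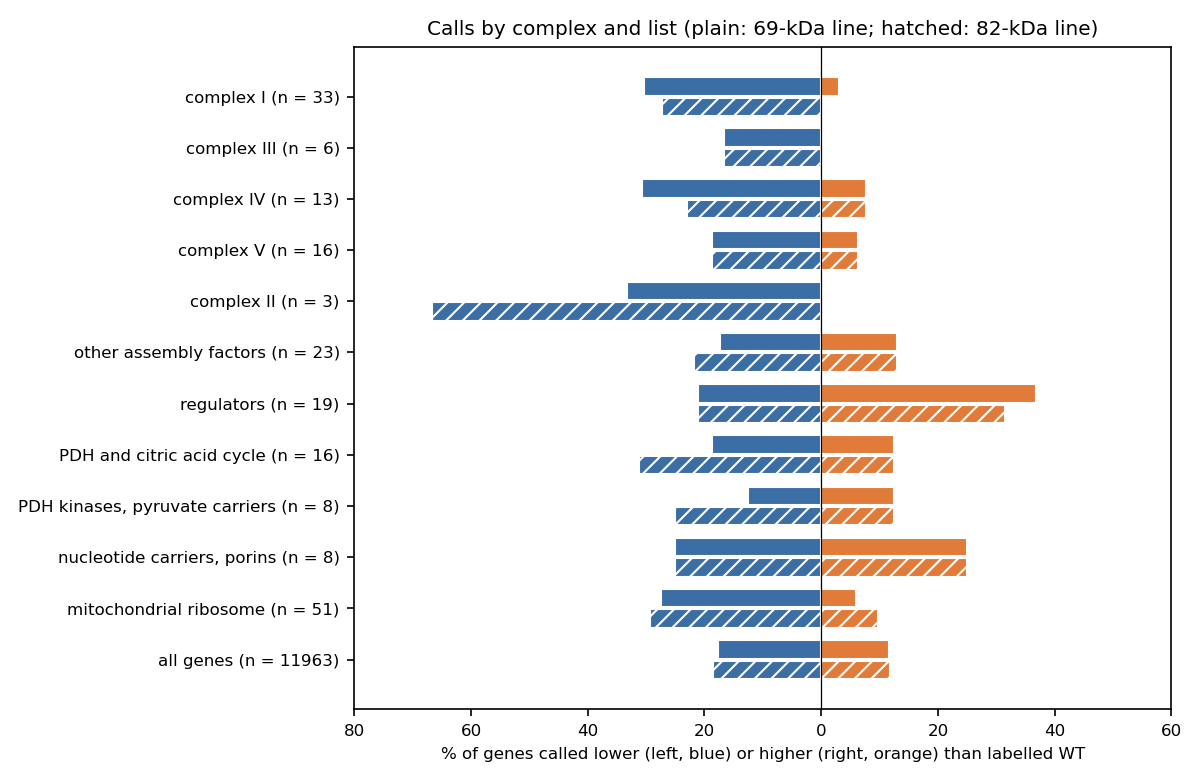
Percent of the genes of each complex or list called lower (left, blue) or higher (right, orange) than on the arrays labelled WT, with 69-kDa cells in plain and 82-kDa cells in hatched bars and the number of genes beside each name. All genes stand at the bottom for comparison, at 17.7% and 18.5% lower and 11.7% and 11.8% higher, and complex II rests on 3 genes.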

How the data were processed

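RNA of IMR32 cells was hybridised to 9 gene chips, 3 for each of 3 groups. The authors deposited normalized intensities on a linear scale, made with RMA per the submitters' processing notes. Its version is not given in the sources used here. RMA corrects background, equalises the arrays and summarises probes, so signal near background is compressed. Of 22283 probe sets 68 controls were left out and log2 values of 22215 were fitted with limma 3.58.1 in R 4.3.3, with 3 group means, no pseudocount, two-sided tests, Benjamini-Hochberg adjustment over all probe sets and a threshold of 0.05. For counts over genes, 19065 probe sets with 1 symbol gave 11963 genes.

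Members and lists were chosen with earlier results of these data known. Members were named by a rule: up to 10 called in each direction by size, the brightest and dimmest of each complex and the paralogue sets. From each list it took up to 4 called genes by smallest adjusted p. Every other member is given by its value or range, chosen after values were seen. Of the 70 members 19 had more than 1 probe set, and 9 probe sets with several symbols were left out by the rule. No filter on low values was set. The numbers in the sample titles were taken to pair arrays, and the titles name no shared day or batch. Deviations from group means correlated at 0.28 to 0.57 in all 9 same-numbered pairs (-0.59 to 0.48 in others). The negative values all joined replicate 1 with replicate 2 or 3. Pairs of replicate 2 with replicate 3 gave 0.21 to 0.48. These values thus set replicate 1 apart and do not show that 2 pairs with 2 and 3 with 3. Alternatives covered scaling, pseudocounts of 1 and 16, filters, probe set choice, eBayes settings, array weights, the 6 arrays compared, the replicate block, replicates 2 and 3, each array left out and a threshold of 0.01. The fit was tested on simulated data. Promoters were RefSeq sequences of GRCh38.p14.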

Additional observations from a re-analysis of the deposited data

Results flagged for a closer look

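Members had 29 probe sets that were not the brightest of their gene and so stood outside the counts above. In 69-kDa cells 1 of these was called higher and 5 lower, and in 82-kDa cells 2 and 5. The lower ones belong to ATP5F1C, COX4I1, COX5B and COX7C, whose brightest probe sets also gave negative differences. The 3 higher calls, from NDUFA6 and UQCRB, are given here. A dimmer NDUFA6 probe set, of an accessory subunit of complex I, read 746, 657 and 653 on the 69-kDa arrays, 749, 785 and 727 on the 82-kDa arrays and 404, 470.1 and 427 on the arrays labelled wild type. It was higher without overlap, by 0.66 on the log2 scale in 69-kDa cells (adjusted p = 0.00069) and 0.80 in 82-kDa cells (0.00023), while the brighter one gave 0.14 and 0.23 without a call. A dimmer UQCRB probe set, of complex III, read 236, 234 and 254 on the 69-kDa arrays, 220.2, 280.1 and 292 on the 82-kDa arrays and 182, 201 and 197 on the arrays labelled wild type. It was higher by 0.44 in 82-kDa cells (adjusted p = 0.02) and gave 0.32 in 69-kDa cells (0.074), whereas the brightest gave -0.29 and -0.30. Which transcripts these probe sets read was not tested.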

How the results depend on the processing

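ATP5IF1, COX6B1, COX7A2L, NDUFA10, NDUFA8 and UQCR10 kept direction and call in both lines under every alternative that included them. ATP5IF1 and UQCR10 have only a probe set with the suffix _s_at, so leaving out the suffixes removed them and could not test them. In each line 10 calls held without any 1 array. Median centring ended the calls of ATP5PD, COX7B, NDUFA7 and NDUFB7 in both lines. It also ended those of NDUFA2 and NDUFB3 in 69-kDa cells and of ATP5MC3 and NDUFS7 in 82-kDa cells. Among the members the replicate block changed no other call than those given. For 69-kDa cells, members called higher numbered 5 with the mean over probe sets, 1 with trend and robust settings, 9 with array weights, 5 with the replicate block, 6 in replicates 2 and 3 and 1 at 0.01 (1 to 3 without single arrays). Members called lower numbered 9 without the suffixes _x_at and _s_at (48 members left), 32 with weights, 28 with the block, 28 in replicates 2 and 3 and 8 at 0.01 (10 to 22 without single arrays). For 82-kDa cells, higher calls were 4 with quantile normalization again, 4 with the mean over probe sets, 15 with weights, 4 with the block, 8 in replicates 2 and 3, 1 at 0.01 and 1 over subunits only (1 to 5). Lower calls were 9 without those suffixes, 33 with weights, 30 with the block, 25 in replicates 2 and 3 and 7 at 0.01 (9 to 17). Between the lines the weights called 26 higher and 23 lower. Those weights did not converge and stood at 59.4 and 61.1 on replicate 2 of both lines and 0.092 to 0.749 elsewhere, so these counts are not relied on. Without the suffixes ATP5F1C was among the members that lost their call in both lines. Over the members left then, the median of complex III was -0.015 in 69-kDa and -0.0088 in 82-kDa cells, and that of complex IV in 82-kDa cells was 0.084. The latter was 0.014 with weights, and -0.25 to 0.10 without single arrays. Direction reversed without the suffixes, which leaves a dimmer probe set, for 5 of 48 members in each line, COX4I1 (0.10) and NDUFB2 (0.091) in 69-kDa cells, COX5B (0.49) and ATP5MG (-0.48) in 82-kDa cells, and NDUFB7 (0.013 and 0.060), NDUFA2 (0.14 and 0.048) and UQCRB (0.32 and 0.44) in both. It also reversed for uncalled members of 69-kDa cells, ATP5MC1 (0.10 with weights, 0.081 in replicates 2 and 3) and COX7A1 (0.025 and 0.050). Without single arrays ATP5MC1 ran from -0.16 to 0.10 and COX7A1 from -0.019 to 0.028 there, and COX7A2 from -0.12 to 0.20 there and from -0.10 to 0.14 in 82-kDa cells. The cause was not tested. 3 arrays a group and signal near background limit the precision.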

Other observations

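9 probe sets with several symbols, at least 1 of them matching, were left out by the rule. In some, such as those of PTCD1 and KCTD14, the only match was a joined symbol (ATP5MF-PTCD1 and NDUFC2-KCTD14). Among the others were probe sets of NDUFS8, NDUFC2 and ATP5MF. The probe set of UQCRH, the hinge protein of complex III, and its copy UQCRHL read 1955, 2085 and 2214 on the 69-kDa arrays, 1557, 3521 and 4250.4 on the 82-kDa arrays and 4313, 4131 and 4428 on the arrays labelled wild type. Replicates 2 and 3 of 82-kDa cells lay above every array of 69-kDa cells and its replicate 1 below. In replicates 2 and 3 alone the 82-kDa cells were 0.85 above the 69-kDa cells on the log2 scale (limma adjusted p = 0.016). With all arrays the difference was 0.46 and did not pass. Against the arrays labelled wild type this probe set was lower in 69-kDa cells (log2 difference -1.04, limma adjusted p = 0.038). In 82-kDa cells it gave -0.59 and did not pass (0.21). The probe set annotated to RPL10, a ribosomal protein gene, and NDUFS5, of complex I, read 2490.2, 2879 and 3200.3 on the 69-kDa arrays, 2606, 5059.7 and 5440.4 on the 82-kDa arrays and 5078, 4356 and 4563 on the arrays labelled wild type. The same arrays of 82-kDa cells stood above 69-kDa cells, by 0.79 in replicates 2 and 3 (adjusted p = 0.0086). With all arrays the gap was 0.55, which did not pass. Against the arrays labelled wild type this probe set gave -0.71 in 69-kDa cells and -0.16 in 82-kDa cells. Neither passed with all arrays (limma adjusted p = 0.073 and 0.66), and the first did with the replicate block (0.044). Which of its genes each probe set reads cannot be told apart, and these 2 were singled out after their values were seen.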
